A study of Mus musculus with 12 samples.

Results

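Glycolysis turns glucose into pyruvate and, through lactate dehydrogenase, into lactate. Many of its enzymes, together with the glucose importer Slc2a1 and the lactate exporter Slc16a3, are known targets of the hypoxia-inducible factor HIF, whose alpha subunit is encoded by Hif1a. With oxygen present, the prolyl hydroxylases encoded by Egln1 and Egln3 mark that subunit for destruction, and both hydroxylase genes are themselves HIF targets. Proliferating myoblasts are known for a high rate of glycolysis, and fusing myotubes for switching to muscle isoforms of several of its enzymes. HIF is known to be controlled mainly at the level of its protein, which RNA counts do not measure.

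The 35 genes described here were named in a list of glucose uptake, glycolytic and HIF target genes. The list was drawn up by function and not by a threshold on measured values, but with earlier results of these data known. Its genes were matched by symbol in a table of 55416 genes. All 35 were found, and all 35 were among the 13250 genes with enough counts to test. They comprise 3 transporters (Slc2a1, Slc2a3, Slc16a3), 14 enzymes of the pathway from hexokinase to lactate dehydrogenase, 3 genes that set its flux (Pfkfb3, Pfkfb4, Pdk1), Hif1a with Egln1 and Egln3, and 12 other hypoxia-inducible genes. Ero1l is the older symbol of Ero1a.

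RNA came from C2C12, an established mouse myoblast line, in 12 libraries. Wild-type cells (WT) and cells labelled as a Mapk14 knockout (Mapk14-/-, here KO), which lack the p38 alpha kinase according to the label, were kept for 5 days in GM, the growth medium (high-glucose DMEM, 10% fetal bovine serum), or in DM, the differentiation medium (DMEM, 2% horse serum). Each of the 4 groups had 3 libraries that the labels call biological replicates, and all carry the same batch date. Both the serum and its amount changed with the medium, and the labels do not give the glucose level of DM, the number of knockout clones or the way the gene was edited. No library was made under altered oxygen according to the labels.

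Library totals ran from 8821669 to 11536396 counts. Values are CPM, counts scaled to library size with a factor for library composition. Unless stated, levels of different genes are compared only as CPM per kilobase of exon (CPM per kb). The exon length joins the exons of all annotated transcripts of a gene and can exceed that of the RNA present, so orders between genes depend on it. The targeted gene did not separate the genotypes: Mapk14 RNA stood at 124 ± 14 CPM in WT GM and 134 ± 3.58 CPM in KO GM (SD, n = 3), and at 91.3 ± 2.59 CPM in WT DM and 89.5 ± 4.67 CPM in KO DM. Counts over a whole gene do not show whether its RNA is intact, so the KO label was neither borne out nor contradicted by this value. The 8 muscle markers summed to 2008 ± 317 CPM in WT GM, 6876 ± 75.2 in WT DM, 448 ± 126 in KO GM and 3036 ± 225 in KO DM. The 5 endothelial and the 5 epithelial markers summed to under 1 CPM in every library, with 1 and 3 of them at 0 counts throughout. Of the 5 macrophage and leukocyte markers, Ptprc and Adgre1 were at 0 counts in all libraries, and the list summed to 17.6 CPM at the lowest and 46.2 CPM at the highest. The 5 fibroblast markers summed to between 80.5 and 119 CPM, most of it from Pdgfra. Another of them, Dcn, differed between the groups. It was at 15.9 ± 5.04 CPM in WT GM, 36.4 ± 1.91 in WT DM, 0.241 ± 0.125 in KO GM and 5.14 ± 1.10 in KO DM.

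The DNA upstream of the start sites is shown first because the HIF complex is known to bind a short core, ACGTG or GCGTG. RefSeq start sites on build GRCm38.p6 were found for 33 of the 35 genes, and the 250 bases before each start were searched on both strands. A core was present in 31 of the 33 genes (93.9%), against 41.5% of all 27025 genes with a promoter in the same table and 61.6% of the 9867 tested genes with one. Counted per start site, 41 of 51 held a core (80.4%), against 38.6% of 32851. The windows differed in base composition: median GC content was 64.0% in the 51 windows, 52.4% in all windows and 59.6% in those of tested genes. Tpi1 and Gpi1 had no core in this window. The longer word CACGTG, which holds ACGTG on each strand and is also known as an E-box, occurred in 5 of the 33 genes (15.2%), against 6.86% of all genes and 9.89% of tested genes. A match of letters is a description and not a binding site.

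The following windows belong to 5 genes that fell in DM in the KO cells and to P4ha1 and Hif1a, which did not. Capitals mark each core on either strand, and the sequences run 5′ to 3′ on the strand of the gene. They lie at chrX:106186850-106187099 on the plus strand (Pgk1), chr7:46845554-46845803 on the plus strand (Ldha), chr7:138909507-138909756 on the minus strand (Bnip3), chr8:45999851-46000100 on the minus strand (Ankrd37), chr12:54203875-54204124 on the minus strand (Egln3), chr10:59323046-59323295 on the plus strand (P4ha1) and chr12:73907617-73907866 on the plus strand (Hif1a).
Pgk1: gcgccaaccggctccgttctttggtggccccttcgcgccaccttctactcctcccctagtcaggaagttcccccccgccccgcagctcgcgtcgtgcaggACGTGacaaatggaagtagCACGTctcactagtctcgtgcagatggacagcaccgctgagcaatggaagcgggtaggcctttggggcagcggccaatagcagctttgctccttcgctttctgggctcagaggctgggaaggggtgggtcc
Ldha: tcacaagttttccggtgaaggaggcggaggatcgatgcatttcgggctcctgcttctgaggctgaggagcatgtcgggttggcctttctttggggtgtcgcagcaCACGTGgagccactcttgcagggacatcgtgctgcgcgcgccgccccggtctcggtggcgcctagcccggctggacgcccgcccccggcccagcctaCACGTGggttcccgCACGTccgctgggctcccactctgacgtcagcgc
Bnip3: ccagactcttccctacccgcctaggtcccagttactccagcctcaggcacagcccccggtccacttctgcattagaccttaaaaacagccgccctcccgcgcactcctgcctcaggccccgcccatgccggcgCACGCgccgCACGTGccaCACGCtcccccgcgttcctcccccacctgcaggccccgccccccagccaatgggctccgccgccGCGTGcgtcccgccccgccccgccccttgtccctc
Ankrd37: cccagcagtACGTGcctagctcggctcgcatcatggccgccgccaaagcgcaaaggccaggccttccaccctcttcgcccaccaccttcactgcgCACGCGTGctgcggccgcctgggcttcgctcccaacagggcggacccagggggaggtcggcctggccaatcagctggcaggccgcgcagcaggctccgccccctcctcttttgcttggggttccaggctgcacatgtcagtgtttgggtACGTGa
Egln3: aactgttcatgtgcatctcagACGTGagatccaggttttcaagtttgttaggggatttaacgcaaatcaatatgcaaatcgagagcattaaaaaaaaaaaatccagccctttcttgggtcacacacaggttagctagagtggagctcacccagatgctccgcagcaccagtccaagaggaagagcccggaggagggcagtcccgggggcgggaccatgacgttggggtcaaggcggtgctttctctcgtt
P4ha1: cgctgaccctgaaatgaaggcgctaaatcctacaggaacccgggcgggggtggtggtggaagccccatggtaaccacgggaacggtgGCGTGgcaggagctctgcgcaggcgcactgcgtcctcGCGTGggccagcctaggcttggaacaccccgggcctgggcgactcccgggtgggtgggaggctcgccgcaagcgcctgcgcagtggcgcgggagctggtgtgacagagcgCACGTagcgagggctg
Hif1a: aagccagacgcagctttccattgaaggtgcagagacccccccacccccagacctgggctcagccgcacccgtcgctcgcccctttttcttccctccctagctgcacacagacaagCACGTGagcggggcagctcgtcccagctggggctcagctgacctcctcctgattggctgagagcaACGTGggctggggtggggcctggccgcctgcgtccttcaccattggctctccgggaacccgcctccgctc
Pgk1 held 2 cores, starting 150 and 131 bases before the start site. Ldha held the CACGTG word at 2 places and 1 further core. Egln3 held a single core, 229 bases upstream. P4ha1 and Hif1a, whose RNA did not fall, also held cores. P4ha1 held 3, and Hif1a held the CACGTG word at 1 place and 1 further core.

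Per kilobase, the 8 most abundant RNAs of the set were all glycolytic enzymes. Averaged over the 4 groups, Pgk1 stood at 843 CPM per kb, Gapdh at 789, Pkm at 787, Pgam1 at 595, Ldha at 581, Aldoa at 487, Tpi1 at 392 and Eno1 at 352, while Slc2a3 stood at 0.903 and Aldoc at 1.16. The order among the enzymes depends on the exon lengths used, such as 5001 bases for Pkm and 2244 for Pgk1. The 14 enzymes together took 1.95% to 2.04% of all counts in WT GM and 2.17% to 2.23% in KO GM. In DM they took 1.58% to 1.61% in WT and 1.36% to 1.56% in KO. The medians of the replicate spread (SD over mean) were between 4.14% and 7.39% in the 4 groups.

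In WT cells, DM lowered most of the set. With edgeR's quasi-likelihood test on all 13250 genes and Benjamini-Hochberg adjustment (called at an adjusted p below 0.05), 26 of the 35 genes fell, 1 rose and 8 were not called. Of all tested genes 14.8% fell and 18.4% rose. The median log2 change of the set was -0.31, against -0.01 over all genes. The 3 libraries of WT DM and the 3 of WT GM did not overlap for 29 of the 35 genes, against 44.3% of all genes. The muscle markers rose in the same comparison (8 of 8; 7 of 8 in KO), and fewer cells of a type cannot be told apart here from less RNA per cell. The 8 genes not called were Slc2a3, Gpi1, Pfkp, Aldoa, Aldoc, Hif1a, Egln3 and Kdm3a.

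Of the 27 calls in WT, 20 held in all alternatives. Calls were lost without WT GM replicate 1 (Hk1, Gapdh, Pfkfb4), replicate 2 (Pfkfb4) or replicate 3 (Gapdh, Pgam1, Egln1, P4ha2), and without WT DM replicate 1 (Pgam1, Pfkfb4, Egln1, P4ha2), replicate 2 (Pfkl, Gapdh, Pgam1, Egln1, P4ha2) or replicate 3 (Gapdh, Pgam1), with adjusted p up to 0.133 in edgeR.

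In KO cells, 31 of the 35 genes fell in DM. None of the 35 was called higher, while 19.8% of all tested genes fell and 20.8% rose. Of the 35, 10 fell at least 2-fold, as did 3.37% of all tested genes. No gene of the set was higher at an unadjusted p below 0.05 in edgeR, and DESeq2 and limma-voom called 0 higher as well. The median log2 change was -0.71, against 0.00 over all genes. Groups did not overlap for 34 of the 35 genes (50.7% of all genes). Hif1a, P4ha1, Pfkfb3 and Pfkfb4 were the 4 genes not called. In both genotypes 24 of the 35 fell, which is 24 of the 26 that fell in WT and of the 31 that fell in KO, against 9.75% of all genes.

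**Figure D1:**
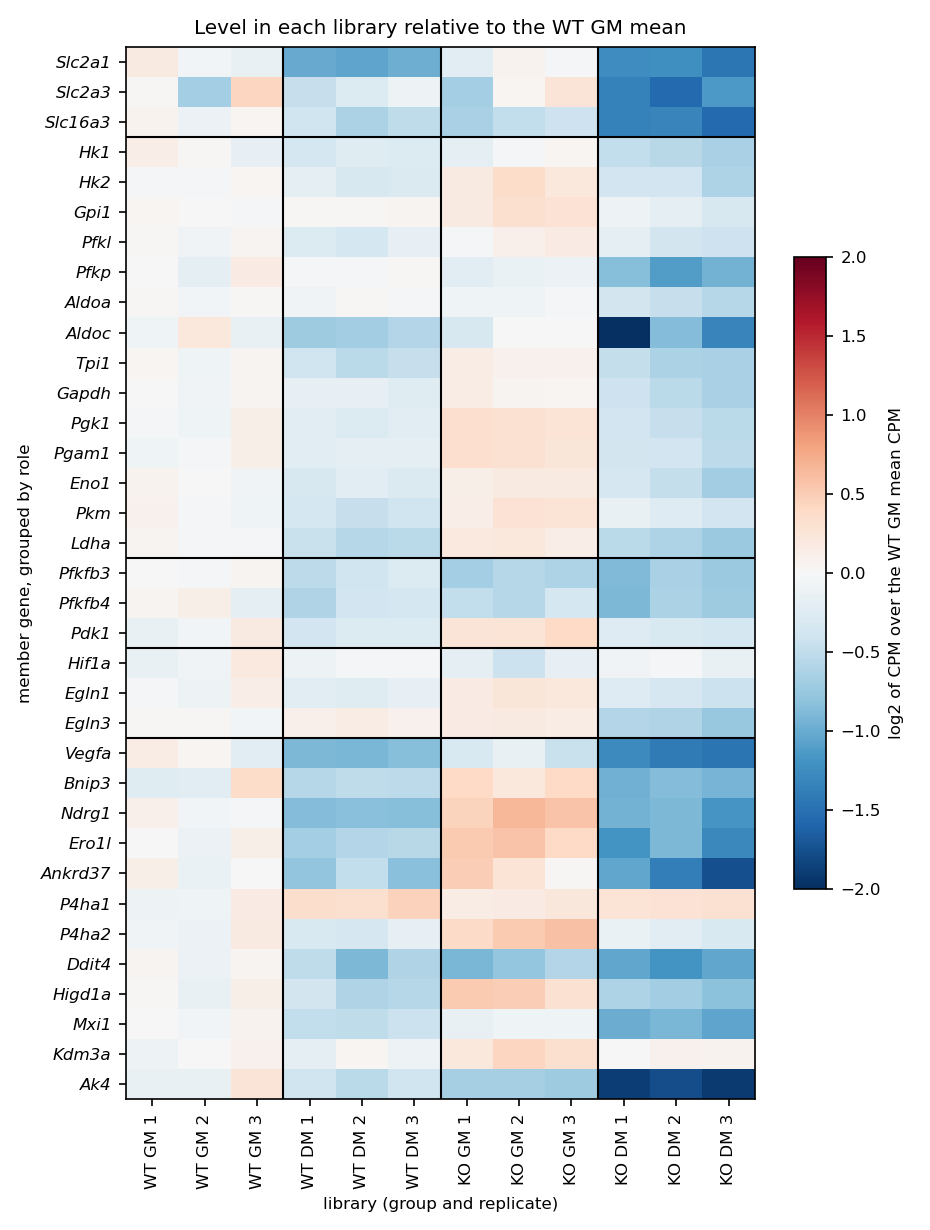
Log2 of each library's CPM over the WT GM mean, for the 35 genes (vertical axis, grouped by role) in the 12 libraries (horizontal axis); blue is lower and red higher. The KO DM columns are the darkest blue for most genes, Vegfa, Aldoc and Ak4 among them, and P4ha1 is red in the DM columns of both genotypes.

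Of the 3 transporters 2 fell in WT and all 3 fell in KO. Slc2a1, which imports glucose, stood at 349, 298 and 278 CPM in the 3 WT GM libraries and at 153, 149 and 157 CPM in WT DM. It stood at 265, 325 and 300 CPM in KO GM and at 131, 132 and 114 CPM in KO DM. All DM libraries lay below all GM libraries: the log2 change was -1.01 ± 0.09 (SE) in WT (adjusted p = 1.04e-08, edgeR) and -1.24 ± 0.09 in KO (adjusted p = 3.76e-10, edgeR). Slc16a3, the exporter of lactate, was at 121, 107 and 118 CPM in WT GM and 87.8, 74.5 and 81.1 CPM in WT DM. In KO GM it was already at 73.7, 82.0 and 86.7 CPM, overlapping the WT DM range, and in KO DM at 45.2, 46.2 and 39.1 CPM, the lowest of all groups. Slc2a3, a second glucose importer, was scarce and its GM libraries scattered between 5.15 and 11.2 CPM. It fell in KO (-1.28 ± 0.27, adjusted p = 0.000739, edgeR) and was at -0.27 ± 0.25 in WT, where it was not called.

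Of the 14 enzymes, 10 fell in WT and 14 of 14 fell in KO. Their summed level went from 19658 ± 524 to 16208 ± 162 CPM in WT, a change of -17.6%, and from 22053 ± 234 to 14452 ± 1124 CPM in KO, a change of -34.5%. Ldha, which makes lactate from pyruvate, was at 2292, 2175 and 2167 CPM in WT GM, 1617, 1488 and 1520 in WT DM, 2524, 2557 and 2424 in KO GM and 1530, 1446 and 1322 in KO DM. DM and GM libraries were far apart in both genotypes, and the DM libraries of the 2 genotypes overlapped. The log2 change of Ldha was -0.52 ± 0.07 in WT and -0.80 ± 0.07 in KO.

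Pgk1, phosphoglycerate kinase, showed how GM and DM levels spread apart in KO. It was at 1940, 1870 and 2152 CPM in WT GM and 1694, 1652 and 1698 CPM in WT DM, against 2496, 2462 and 2407 CPM in KO GM and 1522, 1438 and 1365 CPM in KO DM. The KO libraries were the highest in GM and the lowest in DM, with no overlap in either medium. Its log2 change in DM was -0.24 ± 0.07 in WT and -0.77 ± 0.07 in KO. Pgam1, phosphoglycerate mutase, followed the same order with changes of -0.19 ± 0.07 and -0.71 ± 0.07.

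Gpi1, Pfkp and Aldoa were not called in WT and fell in KO. Pfkp, the platelet form of phosphofructokinase, was at 106, 94.3 and 119 CPM in WT GM and 103, 104 and 109 in WT DM, so these groups overlapped. In KO it went from 92.1, 97.6 and 97.9 CPM in GM to 59.0, 49.4 and 55.4 CPM in DM (-0.81 ± 0.09, adjusted p = 1.19e-07, edgeR). Gpi1, glucose-6-phosphate isomerase, changed by 0.04 ± 0.07 in WT and -0.47 ± 0.07 in KO. Aldoa, the main aldolase, changed by -0.02 ± 0.07 in WT and -0.39 ± 0.07 in KO. The brain-type aldolase Aldoc was near the bottom of the range (5.11 ± 0.702 CPM in WT GM) and fell in KO (-1.26 ± 0.28), while in WT it was at -0.66 ± 0.27 (adjusted p = 0.0606, edgeR). The other enzymes, Hk1, Hk2, Pfkl, Tpi1, Gapdh, Eno1 and Pkm, fell in both genotypes, by 0.19 to 0.46 on the log2 scale in WT and by 0.40 to 0.71 in KO.

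Eno1 and Gapdh have near-identical copies elsewhere in the genome, which bears on their counts. Of the 31-base words of Eno1 transcripts 77.2% also occur in other genes, and counts assigned to those copies came to 71.5% of its own, most of them to Gm4735. For Gapdh 30.7% of the words were shared, and the genes taken as copies by shared words held 29.3% of its own counts. Most of these were counts of Gm13394 (104323), but Peli2 (4334 counts) was included though it shared only 168 words. With the copies' counts added, Gapdh was no longer called in WT (-0.18, adjusted p = 0.0513, edgeR), and Eno1 was no longer called between the genotypes in DM (-0.20, adjusted p = 0.056, edgeR).

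**Figure D2:**
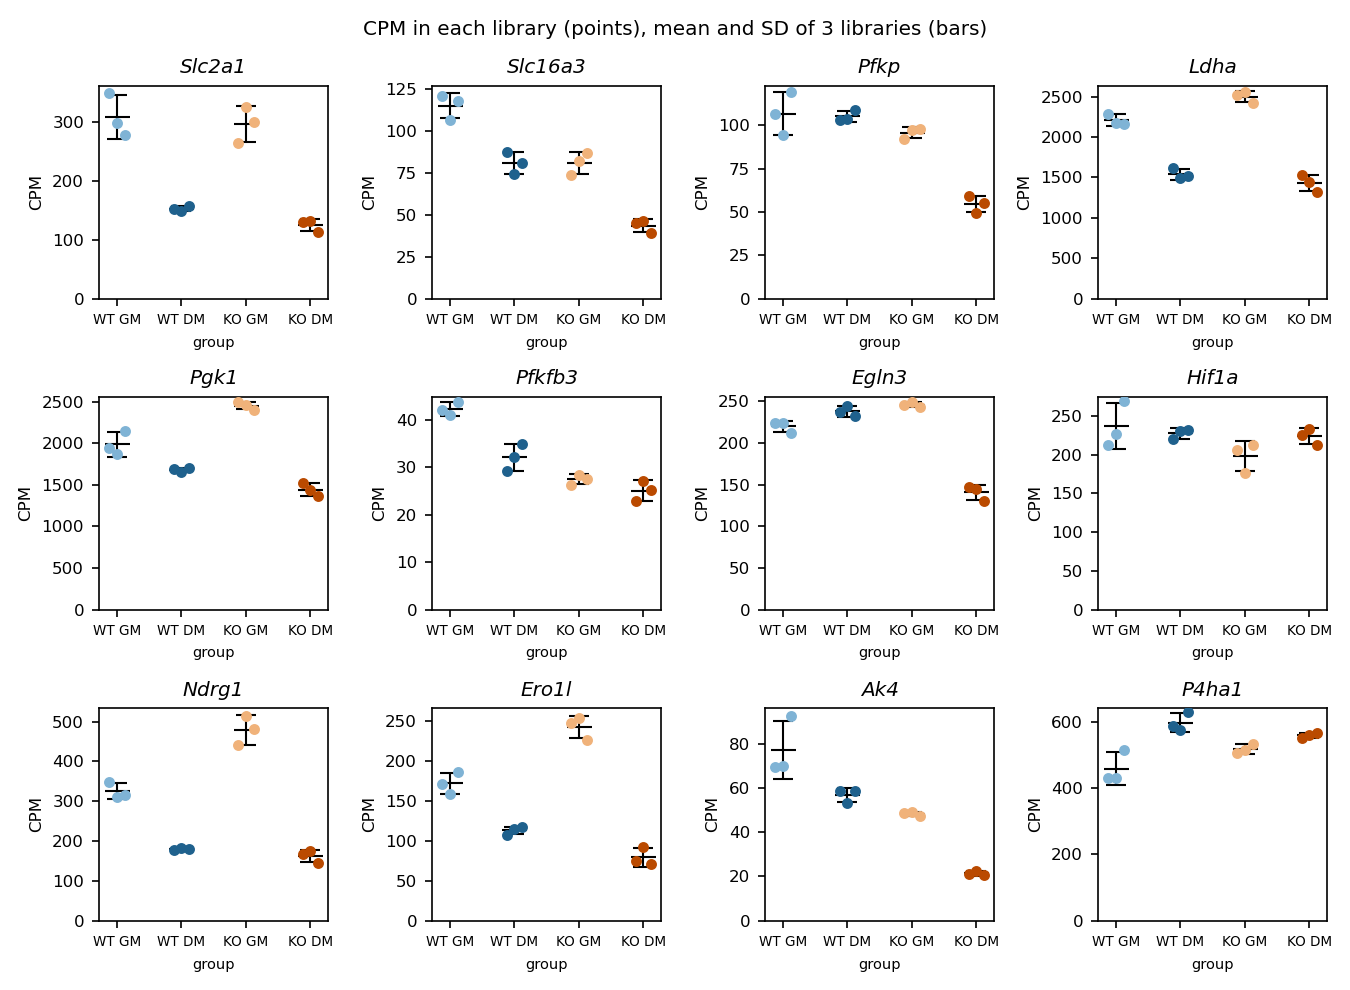
CPM (vertical axes, from 0) of 12 of the genes in each library (points) of the 4 groups (horizontal axes), with the mean and SD of 3 libraries. Slc2a1 is lower in both DM groups, Pfkp and Egln3 are lowest in KO DM, and Hif1a lies between 176 and 270 CPM in all libraries.

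Of the 3 genes that set flux, all 3 fell in WT and 1, Pdk1, fell in KO. Pfkfb3, whose product makes the activator of phosphofructokinase, was at 42.1, 40.9 and 43.7 CPM in WT GM and 29.3, 32.1 and 34.8 in WT DM. In KO it was at 26.3, 28.4 and 27.5 CPM in GM and 22.8, 27.1 and 25.3 CPM in DM, low in both media and overlapping. The change was -0.40 ± 0.10 in WT (adjusted p = 0.00288, edgeR) and -0.13 ± 0.10 in KO (adjusted p = 0.329, edgeR), and the difference between these responses was 0.27 ± 0.14 and was not called (adjusted p = 0.259, edgeR). Its relative Pfkfb4 was at -0.44 ± 0.14 in WT and -0.27 ± 0.15 in KO. Pdk1, the kinase that keeps pyruvate out of the mitochondrial dehydrogenase, fell in both genotypes (-0.31 ± 0.08 in WT and -0.62 ± 0.08 in KO).

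Hif1a RNA itself was not called between media in either genotype. It was at 213, 226 and 270 CPM in WT GM, 220, 230 and 232 in WT DM, 206, 176 and 212 in KO GM and 226, 233 and 213 in KO DM. The log2 change in DM was -0.06 ± 0.09 in WT and 0.18 ± 0.09 in KO. Without KO GM replicate 3 the KO change became 0.23 (adjusted p = 0.0463, edgeR). Egln3, an oxygen-sensing hydroxylase, was at 224, 224 and 212 CPM in WT GM and 236, 244 and 232 CPM in WT DM, against 245, 249 and 243 CPM in KO GM and 147, 145 and 130 CPM in KO DM. It lay between 212 and 249 CPM in 3 groups and below that range in KO DM: the change was 0.11 ± 0.07 in WT and -0.81 ± 0.07 in KO (adjusted p = 4.44e-09, edgeR). Egln1, the main hydroxylase acting on HIF, fell by 0.21 on the log2 scale in WT and by 0.54 in KO.

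The deepest fall in KO was that of Ankrd37 (-1.63 ± 0.19), 1 of the 12 other hypoxia-inducible genes, and the deepest in WT was that of Slc2a1. Of these 12, 10 fell and 1 rose in WT, and 11 fell in KO, 7 of them at least 2-fold. Their summed level changed by -20.4% in WT (2155 ± 138 to 1717 ± 52.3 CPM) and by -41.1% in KO (2488 ± 64.4 to 1466 ± 37.0 CPM). Ndrg1, a stress-responsive gene induced by hypoxia, was at 348, 311 and 316 CPM in WT GM, 177, 182 and 181 in WT DM, 440, 514 and 481 in KO GM and 168, 174 and 144 in KO DM. It fell 1.81-fold in WT and 2.95-fold in KO. Both DM groups lay far below both GM groups, and KO GM lay above WT GM.

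Ero1l, the oxidase of disulfide formation in the endoplasmic reticulum, was at 170, 158 and 186 CPM in WT GM and 108, 114 and 117 in WT DM. In KO it went from 247, 253 and 226 CPM in GM to 74.8, 92.0 and 70.3 CPM in DM, a 3.06-fold fall. The KO groups lay outside the WT groups on both sides. Ankrd37, a small HIF target of low abundance, was at 12.9, 10.9 and 11.98 CPM in WT GM, 6.91, 8.48 and 6.69 in WT DM, 16.7, 14.3 and 12.1 in KO GM and 5.78, 4.58 and 3.53 in KO DM.

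Bnip3, a mitophagy receptor, was at 206, 211 and 315 CPM in WT GM and 164, 171 and 170 CPM in WT DM. In KO it was at 321, 284 and 323 CPM in GM and 126, 134 and 128 CPM in DM. WT GM replicate 3 stood apart from the other WT GM libraries and in the range of KO GM. Vegfa, the endothelial growth factor, fell by 0.89 on the log2 scale in WT and by 1.08 in KO. Higd1a, a mitochondrial hypoxia gene, fell by 0.51 and 1.15, and Mxi1, a MYC antagonist, by 0.47 and 0.88.

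Collagen prolyl hydroxylase subunits split. P4ha1 was the single gene called higher in WT DM: it was at 429, 430 and 516 CPM in WT GM and 587, 574 and 630 CPM in WT DM (0.38 ± 0.08, adjusted p = 0.000375, edgeR). In KO it was at 506, 514 and 534 CPM in GM and 552, 559 and 566 CPM in DM, apart but close (0.11 ± 0.08, not called). P4ha2 fell instead, by 0.26 on the log2 scale in WT and by 0.72 in KO. Ddit4, an inhibitor of the mTOR kinase, fell by 0.66 in WT and by 0.34 in KO, and the KO call was lost without KO GM replicate 3 (adjusted p = 0.0667, edgeR) or KO DM replicate 2 (0.0835). Kdm3a, a histone demethylase, was at -0.08 ± 0.08 in WT and fell by 0.26 in KO, a call that was lost without KO GM replicate 2 (adjusted p = 0.098, edgeR) or KO DM replicate 1 (0.0819).

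**Figure D3:**
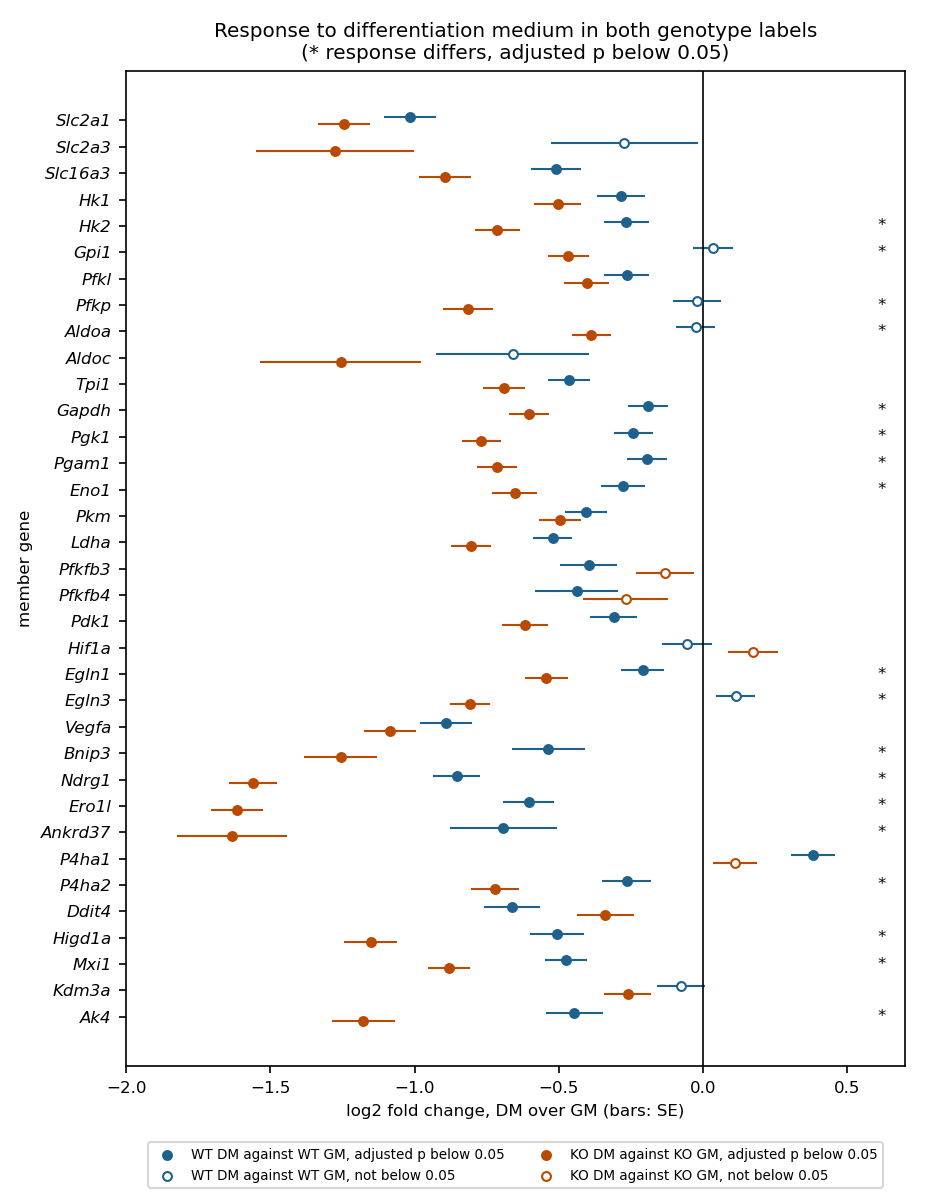
Log2 fold change from GM to DM (horizontal axis, bars are SE) of the 35 genes (vertical axis) in WT (blue) and KO (orange); filled points had an adjusted p below 0.05 and stars mark genes whose responses differed. Most orange points lie left of the blue ones, with Pfkfb3, Pfkfb4, Hif1a and Ddit4 the other way.

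The response to DM itself differed between the genotypes for 18 of the 35 genes, all with the more negative change in KO, while 5.25% of all tested genes had a lower and 3.61% a higher value of this difference. None was called higher by edgeR, DESeq2 or limma-voom, and 1 gene, Ddit4, was higher at an unadjusted p below 0.05. The median difference was -0.39 on the log2 scale. The largest among the 18 were those of Ero1l (-1.01 ± 0.13, adjusted p = 2.33e-05, edgeR), Ankrd37 (-0.94 ± 0.27), Egln3 (-0.92 ± 0.10) and Pfkp (-0.79 ± 0.12). By role, 8 of 14 enzymes, Egln1 and Egln3 and 8 of the 12 other hypoxia-inducible genes were among the 18, and none of the transporters or flux genes was. Slc2a3 differed by -1.003 ± 0.375 (adjusted p = 0.101, edgeR), Slc2a1 by -0.23 ± 0.13 and Ldha by -0.28 ± 0.10, none of them called. Slc2a3, Slc16a3, Pdk1 and Ldha were each called lower in at least 1 alternative. Examples are Slc2a3 without a filter on low counts (adjusted p = 0.0358, edgeR) and Slc16a3 with a replicate block (0.0442, edgeR). Pdk1 was called without WT GM replicate 3 (0.0102, edgeR), and Ldha by DESeq2 (0.0326).

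The count of 18 changed when single libraries were left out. It was 12 without WT GM replicate 2, WT DM replicate 3 or KO GM replicate 2, and 13 without WT DM replicate 2 or KO DM replicate 2. KO DM replicate 3 held the lowest CPM of its group for 26 of the 35 genes, and without it 10 genes remained called, with Hk2, Aldoa, Eno1, Egln1, Bnip3, Ankrd37, P4ha2 and Mxi1 no longer below 0.05. Its muscle markers were also the lowest of the group, at 2849 CPM against 3286 and 2974, and their part in the result was not tested. Over all alternatives, 10 of the 18 were called each time: Gpi1, Pfkp, Gapdh, Pgk1, Pgam1, Egln3, Ndrg1, Ero1l, Higd1a and Ak4. WT GM replicate 3 held the highest CPM of its group for 22 of the 35 genes, and KO GM replicate 3 for 16. The muscle markers were also highest in these libraries, at 2365 CPM against 1759 and 1899 in WT GM. In KO GM they were at 588 CPM against 408 and 347, and their part was not tested. Without replicate 3 of both GM groups the count was 22, and Ddit4 was called higher.

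In GM, the genotypes differed in both directions. Of the 35 genes 12 were higher in KO and 7 were lower, where 10% of all tested genes were higher and 10.6% lower. The groups did not overlap for 23 of the 35 (32.3% of all genes). The 12 higher genes were Hk2, Gpi1, Pgk1, Pgam1, Pkm, Pdk1, Egln1, Ndrg1, Ero1l, P4ha2, Higd1a and Kdm3a, led by Ndrg1 (0.56 ± 0.08), P4ha2 (0.50 ± 0.08) and Ero1l (0.50 ± 0.09). The 7 lower genes were Ddit4 (-0.75 ± 0.10), Ak4 (-0.68 ± 0.10), Pfkfb3 (-0.62 ± 0.10), Slc16a3 (-0.51 ± 0.09), Pfkfb4 (-0.47 ± 0.14), Vegfa (-0.29 ± 0.09) and Hif1a (-0.25 ± 0.09). The muscle markers were lower in KO GM as well (8 of 8), and their part in these differences was not tested.

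Several of the GM calls were lost when a library was left out. Without KO GM replicate 2, 7 genes were called higher, and without WT GM replicate 2, 4 were called lower. The calls of Hk2, Pkm, Egln1, Pdk1, Gpi1, Kdm3a, Pfkfb4, Vegfa and Hif1a were each lost in at least 1 alternative. The 10 that were called in all alternatives were Slc16a3, Pgk1, Pgam1, Pfkfb3, Ndrg1, Ero1l, P4ha2, Ddit4, Higd1a and Ak4. Other genes gained a call as higher in KO GM. Bnip3 did so in DESeq2 (adjusted p = 0.0291), in limma-voom (0.031) and without WT GM replicate 3 (3.25e-06, edgeR). Ldha did so in DESeq2 (0.0338), and P4ha1 without WT GM replicate 3 (0.00776, edgeR).

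In DM, 20 of the 35 genes were lower in KO and 0 higher (17.4% of all tested genes were lower and 13.6% higher). None was higher at an unadjusted p below 0.05 in edgeR, or called higher by DESeq2 or limma-voom. The groups did not overlap for 27 of the 35 (47.5% of all genes). Ak4, a mitochondrial adenylate kinase induced by HIF, was at 58.6, 53.1 and 58.7 CPM in WT DM and 21.1, 22.7 and 20.4 CPM in KO DM, a 2.65-fold difference (adjusted p = 1.42e-09, edgeR). It was also lower in KO GM, at 49.0, 49.1 and 47.3 CPM against 69.5, 69.8 and 92.7 CPM in WT GM, where replicate 3 was high. Slc2a3 (-1.07 ± 0.28), Pfkp (-0.95 ± 0.09), Slc16a3 (-0.90 ± 0.09) and Egln3 (-0.76 ± 0.07) followed.

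Without WT DM replicate 3 or KO DM replicate 3, 12 genes were called lower in KO DM. The calls that 1 or both of these ended were those of Slc2a1, Hk1, Gpi1, Pgk1, Pgam1, Eno1, Pfkfb3, Bnip3 and Ankrd37. Called in all alternatives were 11 genes: Slc2a3, Slc16a3, Pfkp, Aldoa, Gapdh, Egln3, Vegfa, Ero1l, Ddit4, Mxi1 and Ak4. The muscle markers were lower in KO DM too (6 of 8), and their part in the result was not tested.

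The mean levels of 14 genes (40%) had the same order, from KO GM over WT GM and WT DM to KO DM, an order that 7.56% of all tested genes had. Looking for this order was not among the planned tests, and it draws on the same values as the comparisons above, so it adds no separate evidence. These were Hk2, Pfkl, Tpi1, Gapdh, Pgk1, Pgam1, Eno1, Ldha, Egln1, Bnip3, Ndrg1, Ero1l, Ankrd37 and Higd1a. Neighbours in that order were not called different for all of them: Pfkl, Tpi1, Gapdh, Eno1, Ldha, Bnip3 and Ankrd37 were not called between the genotypes in GM, nor Hk2, Pfkl, Tpi1, Ldha, Egln1, Ndrg1 and Higd1a in DM. Some alternatives did call Bnip3 and Ldha in GM, and Hk2 in DM.

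**Figure D4:**
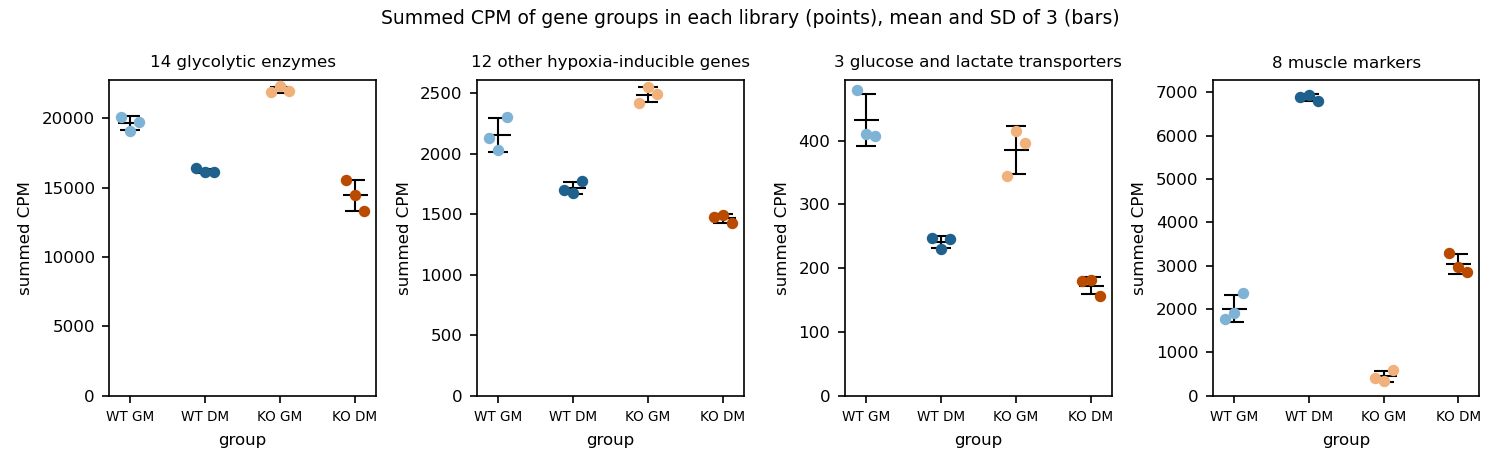
Summed CPM (vertical axes, from 0) of 3 groups of genes and of the 8 muscle markers in each library (points), with the mean and SD of 3 libraries in the 4 groups (horizontal axes). The enzymes are highest in KO GM and lowest in KO DM, while the muscle markers are highest in WT DM and lowest in KO GM.

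Isozymes outside the list moved in both directions. Of 37 further glycolytic isozymes and transporters 24 were tested. In WT 4 rose (16.7%) and 6 fell (25%), against 18.4% and 14.8% of all tested genes, and in KO 4 rose (16.7%) and 7 fell (29.2%), against 20.8% and 19.8%. The share that rose was near that of all genes in both genotypes. Pfkm, the muscle phosphofructokinase, was at 76.3, 80.7 and 89.1 CPM in WT GM and 213, 216 and 214 CPM in WT DM. The KO libraries gave 79.1, 75.5 and 85.7 CPM in GM and 116, 114 and 110 CPM in DM. It rose by 1.38 ± 0.07 (log2) in WT and by 0.50 ± 0.07 in KO, and the difference was called (-0.89 ± 0.10, adjusted p = 1.36e-05, edgeR). As a share of phosphofructokinase RNA per kilobase, Pfkm went from 26.5% ± 1.35 to 52.6% ± 1.58 in WT and from 25.3% ± 1.34 to 39.4% ± 1.5 in KO (SD, n = 3). Pfkl went from 64.9% to 41.0% and from 67.2% to 55.9%. Before division by length, Pfkl was at 335 ± 21.1 CPM in WT DM, still above Pfkm. Which of them leads in WT DM therefore depends on the exon lengths used (6675 bases for Pfkl, 3340 for Pfkm).

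Pgam2, the muscle mutase, rose by 1.93 ± 0.27 in WT and by 1.23 ± 0.33 in KO, yet stayed at 2.18% and 0.771% of mutase RNA per kilobase in DM. Eno3, the muscle enolase, chosen after its values were seen, rose by 0.32 ± 0.08 in WT and was at -0.09 ± 0.08 in KO. Ldhb, the heart-type lactate dehydrogenase, was lower in KO in both media (-2.25 ± 0.24 in GM and -2.20 ± 0.23 in DM). Slc16a7, a high-affinity lactate and pyruvate carrier, was higher in KO in both (2.94 ± 0.38 and 3.24 ± 0.38), though at no more than 6.35 CPM in any library. Gpd2, the mitochondrial glycerol phosphate dehydrogenase, fell by 1.38 in WT and by 1.95 in KO on the log2 scale.

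**Figure D5:**
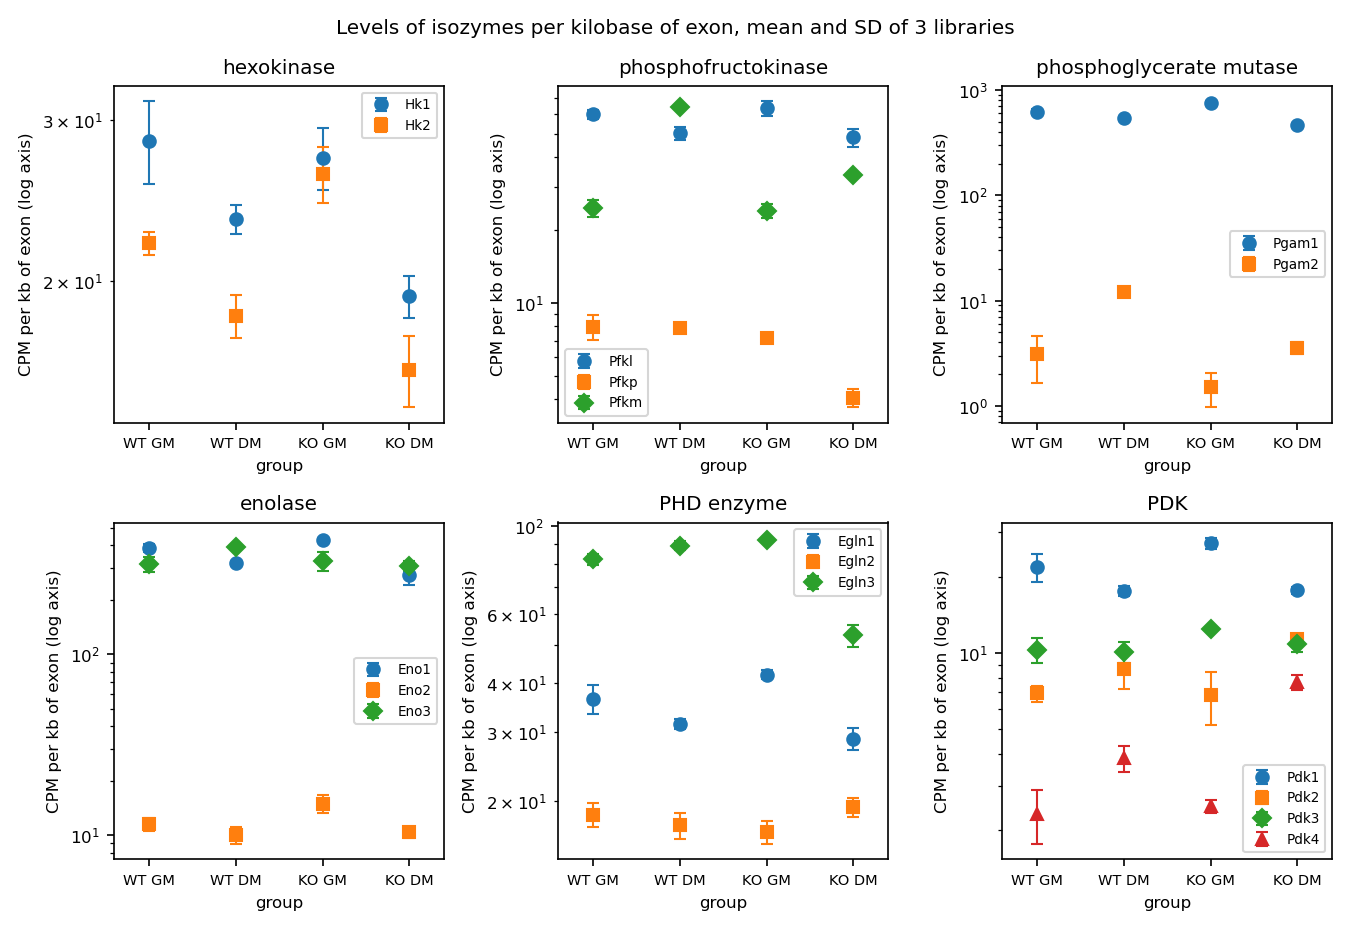
CPM per kilobase of exon (vertical log axes, mean and SD of 3 libraries) of isozymes in 6 enzyme families in the 4 groups (horizontal axes). On this scale, which depends on the annotated exon lengths, Pfkm passes Pfkl in WT DM but not in KO DM. Egln3 drops in KO DM.

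Of 17 partners and regulators of HIF, 15 were tested. In WT 3 rose (20%) and 1 fell (6.67%), and in KO 2 rose (13.3%) and 3 fell (20%), shares near or below those of all tested genes. Cited2, which competes with HIF for its coactivator, fell by 0.82 in WT and by 0.70 in KO on the log2 scale. Arnt2, a partner subunit, rose by 0.68 and 0.64, and Arnt, the usual partner, rose by 0.30 in KO. Epas1, which encodes another HIF alpha subunit, reached at most 0.557 CPM in any library, and Hif3a was at 0 counts in all 12.

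Of 47 other HIF-inducible genes 44 were tested. In WT 16 fell (36.4%, against 14.8% of all genes) and 9 rose (20.5%, against 18.4%). In KO 21 fell (47.7%, against 19.8%) and 12 rose (27.3%, against 20.8%). The median changes were -0.02 and -0.29. The largest rise of the list in both genotypes was that of Ppfia4, a liprin scaffold protein, by 2.87 ± 0.20 in WT and 3.23 ± 0.26 in KO. Ppfia4 was at 3.19, 2.69 and 5.29 CPM in WT GM, 28.5, 27.0 and 26.8 in WT DM, 1.29, 0.607 and 1.24 in KO GM and 10.9, 8.87 and 9.47 in KO DM, so that KO lay below WT in both media. Erfe, which encodes the hormone erythroferrone, rose by 1.38 ± 0.20 in WT and by 2.09 ± 0.23 in KO. Car12, a carbonic anhydrase, was at 6.69, 7.20 and 8.38 CPM in WT GM, 7.95, 8.38 and 10.2 in WT DM, 8.48, 8.15 and 9.13 in KO GM and 0.811, 1.21 and 0.929 in KO DM. Like Egln3, it had its 3 lowest libraries in KO DM (difference of responses -3.36 ± 0.31, adjusted p = 9.33e-07, edgeR). Car9, a related enzyme chosen after its values were seen, was at 134 ± 8.87 CPM in GM and 57.2 ± 10.4 CPM in DM for KO, and at 102 ± 3.63 and 117 ± 9.43 CPM for WT. Gbe1, the glycogen branching enzyme, also chosen after its values were seen, fell by 1.02 in WT and by 1.98 in KO. Pgf, a placental growth factor, fell by 1.67 and 3.31. Stc1, a secreted hormone, fell in WT (-3.45 ± 0.61) and was at 0.44 ± 0.56 in KO, with WT GM replicate 3 at 170 CPM against 60.5 and 83.0 CPM. Hmox1, heme oxygenase, was higher in KO in GM (1.70 ± 0.15) and in DM (1.15 ± 0.15). Loxl2, a lysyl oxidase, stood at 55.6 ± 7.88 CPM in WT GM and 0.217 ± 0.129 CPM in KO GM.

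Of 19 tested genes that govern the fate of pyruvate, 8 rose (42.1%, against 18.4% of all genes) and 2 fell (10.5%, against 14.8%) in WT, and 10 rose (52.6%, against 20.8%) and 2 fell (10.5%, against 19.8%) in KO. Pdk4, which restrains pyruvate dehydrogenase, was at 6.27, 8.06 and 10.2 CPM in WT GM, 13.1, 15.2 and 12.2 in WT DM, 8.16, 9.10 and 8.96 in KO GM and 24.8, 27.7 and 28.2 in KO DM. It rose by 0.72 ± 0.16 in WT and 1.62 ± 0.15 in KO, opposite to Pdk1. Pcx, pyruvate carboxylase, rose by 1.12 ± 0.13 and 1.79 ± 0.13.

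For the next 3 lists, the shares of all tested genes that rose and fell were again 18.4% and 14.8% in WT and 20.8% and 19.8% in KO. Of 16 glycogen genes 5 rose (31.2%) and 1 fell (6.25%) in WT, and 4 rose (25%) and 3 fell (18.8%) in KO. Pygm, the muscle phosphorylase, rose by 2.96 ± 0.24 and 3.48 ± 0.33 and was lower in KO in both media. Of the 10 genes of the pentose phosphate pathway 1 rose (10%) and 3 fell (30%) in WT, and 2 rose and 2 fell (20% each) in KO, with Taldo1, transaldolase, falling by 0.59 and 0.44. Among 22 regulators of glucose metabolism 4 rose (18.2%) and 6 fell (27.3%) in WT, and 5 rose (22.7%) and 3 fell (13.6%) in KO. Txnip, a glucose-induced inhibitor of glucose uptake, fell by 0.78 and 1.24, and Myc, an activator of glycolytic genes, fell by 0.74 and 1.02.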

How the data were processed

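For each of the 12 libraries the authors deposited raw counts, as whole numbers, in a table of 55416 Ensembl genes (52083 with a symbol). Its 4 empty columns were not used. The submitters' processing notes name the build GRCm39, the aligner STAR (2.7.1a), the quantifier RSEM (1.3.3) and DESeq2 (1.40.2) under R (4.3.1). The sources used here do not give the tool that made the counts, the annotation release or a strand setting, so reads of overlapping or antisense genes cannot be told apart.

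Counts were tested with edgeR 4.0.16 (quasi-likelihood, robust, R 4.3.3): TMM scaling, edgeR's default filter for low counts (13250 genes kept, holding 99.9% of counts), 1 mean per group over all 12 libraries, 5 contrasts including the difference between the genotypes' responses to DM. Tests were 2-sided, with Benjamini-Hochberg adjustment over all tested genes, and standard errors are on the log2 scale. The p-values measure the spread between libraries that the labels call biological replicates. As the number of knockout clones is not given, the knockout cannot be told apart here from other differences between the WT and KO cells. With 3 libraries a group, precision is limited by that number as well as by depth. Exon lengths for CPM per kb and the shared 31-base words came from GENCODE M21 on GRCm38, another build than that of the counts, and were used by gene identifier only; promoters came from RefSeq. The companion and marker lists (other isozymes and transporters, HIF system, other HIF-inducible genes, glycogen, pentose phosphate, pyruvate fate, regulators, muscle, fibroblast, macrophage, endothelium, epithelium) and the 35 genes were chosen with earlier results of these data known. From each companion list, up to 2 called genes with the largest rise and 2 with the largest fall in a comparison were eligible to be named, besides all 35 genes and Mapk14; exceptions are marked, and 1 eligible gene is not reported here. Comparisons that share a group are not independent. The code was tested on simulated data. Alternatives were DESeq2 1.42.0, limma-voom 3.58.1, other scalings and filters, a replicate block, fits of the compared groups alone, each library left out in turn and both GM replicate 3 libraries left out. A further alternative, chosen after seeing the data, added the counts of near-identical copies. These were taken by shared words and so included Peli2 for Gapdh.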

Additional observations from a re-analysis of the deposited data

Results flagged for a closer look

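For 35 genes named here the change from GM to DM differed between KO and WT cells by a test of the difference itself (the interaction term in edgeR, adjusted over all tested genes); each value below is the KO response minus the WT response on the log2 scale. They comprise 18 of the 35 glycolytic and hypoxia-inducible genes and 17 genes of the companion lists. The 17 were selected by the naming rule or a later choice and are not all called genes of these lists. Of 44 other HIF-inducible genes tested, for example, 11 were lower (25%) and 1 was higher (2.27%). Of all tested genes 5.25% were lower and 3.61% higher.

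Among the enzymes the differences were -0.45 for Hk2, -0.50 for Gpi1, -0.79 for Pfkp, -0.36 for Aldoa, -0.41 for Gapdh, -0.53 for Pgk1, -0.52 for Pgam1 and -0.38 for Eno1. The oxygen-sensing hydroxylases Egln1 and Egln3 had -0.33 and -0.92. Unlike that of Egln3, the Egln1 call was lost with the other scalings (adjusted p from 0.0514 to 0.101, edgeR). It was also lost without a filter on low counts (0.0819, edgeR) and with a stricter filter (0.0695, edgeR). The Eno1 call was lost when counts were scaled to library totals alone (0.0714, edgeR). Among the other hypoxia-inducible genes the differences were -0.72 for Bnip3, -0.71 for Ndrg1, -1.01 for Ero1l, -0.94 for Ankrd37, -0.46 for P4ha2, -0.65 for Higd1a, -0.40 for Mxi1 and -0.73 for Ak4.

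In the companion lists, the isozymes and carriers had -0.89 for Pfkm, -0.41 for Eno3, -0.87 for Slc2a6, -0.58 for Gpd2 and 0.97 for the fructokinase gene Khk. The HIF system had -0.48 for Siah2 and -0.46 for Hsp90aa1. Other HIF-inducible genes had -1.43 for Car9, -3.36 for Car12, -1.64 for Pgf, -0.97 for Gbe1 and 3.90 for Stc1, whose call was lost without any single DM library and without KO GM replicate 1. The glycogen gene Pgm2 had -0.52. Around pyruvate, Pdk4 had 0.90, Pcx 0.67 and Me2 -0.37, and the regulator Txnip had -0.45. The muscle markers also differed in this comparison, with 3 of 8 called higher (37.5%, against 3.61% of all tested genes). Their part in these differences was not tested.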

How the results depend on the processing

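None of the values of the 35 genes or of the companion genes eligible to be named changed sign while called under any alternative. The other companion genes, among them Eno3, Car9 and Gbe1, were not checked in this way. Leaving out each library in turn gave 21 to 25 lower in WT DM, 30 to 31 lower and 0 to 1 higher in KO DM against KO GM (Hif1a, without KO GM replicate 3), 7 to 13 higher and 4 to 6 lower in KO GM against WT GM, 12 to 18 lower in KO DM against WT DM, and 10 to 20 lower and 0 to 1 higher for the difference of responses. Fits of only the groups compared called 1 gene, Pkm, higher in KO DM against WT DM. Without both GM replicate 3 libraries, 2 genes were higher in KO DM against KO GM (Hif1a, P4ha1), 1 in KO DM against WT DM (Pkm) and 1 for the difference (Ddit4). Deviations from group means of same-numbered libraries correlated at -0.11 to 0.22 (median 0.07) over 18 pairs, with 6 pairs above 0.1. Those of different-numbered libraries correlated at -0.33 to 0.28 (median -0.03) over 36 pairs, with 1 above 0.1. Whether the replicate numbers mark a shared source was not tested, and the labels name no pairing. A replicate block gave 27 lower in WT, 31 lower in KO, 15 higher and 7 lower in KO GM, 21 lower in KO DM and 21 lower for the difference. No scaling moved the median change of all genes by over 0.1. Slc2a3 and Aldoc, at a few CPM, were the least precisely measured of the 35.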
